A study of Mus musculus with 6 samples.

Results

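The receptors of the common gamma chain cytokines were examined in cultured lung ILC2s (group 2 innate lymphoid cells) from WT and SIRPα KO mice. The 7 genes, chosen by name, are Il2ra, Il2rb, Il2rg, Il7r, Il4ra, Il9r and Il21r, out of 17831 genes in the deposited table. Il15ra, the alpha chain for IL-15, is described with the partner chains. All 7 passed the filter on low counts. Bulk RNAseq was available for 3 WT libraries (CB57BL/6 in the labels) and 3 SIRPα KO libraries (SIRPalphatm1Ynliu/J). In both groups, mice of 6 to 8 weeks received 0.5 µg of IL-33 intranasally on 3 days, lung ILC2s were sorted on day 4, and the cells were kept with IL-2 and IL-7, each at 10 ng/mL, for 18 or 24 h, both times being given. The sort selected CD45+ lineage-negative cells with surface CD127, the protein of Il7r, and ST2, and removed cells with markers of T cells (CD3ε, CD4, CD5, TCRβ, TCRγδ), B cells (B220), natural killer cells (CD335), mast cells (FcεRIα) and myeloid cells (CD11b, CD11c, Gr1), so an IL-7 receptor was a condition of entry in both groups, and all cells had been cultured with ligands of the receptors described here. Each library was made from 10 pg of RNA with an amplifying kit.

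The deposited estimated counts summed to between 13980499 and 19051507 per library. Levels are given as CPM, the library's counts scaled to a common total after TMM scaling, and differences as log2 fold changes of SIRPα KO over WT with the SE of edgeR's quasi-likelihood test. The series' design text speaks of duplicates, where the labels give 3 libraries per group. The labels also give WT replicates 1 and 2 the same code number (37), and SIRPα KO replicates 2 and 3 likewise (44), so the 3 libraries of a group may hold 2 samples. Nothing in the labels says that they come from separate mice, and p-values measure the spread between these libraries, which may be technical. Sirpa itself was read at 8.57, 6.83 and 4.83 CPM in the WT libraries and at 3.07, 4.46 and 1.74 CPM in the SIRPα KO libraries, lower in each but not absent. edgeR put the biological coefficient of variation at 38% for the WT libraries against 15.2% for the SIRPα KO libraries. Of the 14 ILC2 markers, 13 were analysed, and their summed level was 13020 to 14000 CPM in WT against 17060 to 17580 CPM in SIRPα KO. Most of that sum was Il5. Of the 13 markers, 7 had a lower level in SIRPα KO, 6 of them in every library, and Id2 (log2 fold change -0.65, edgeR adjusted p = 0.0154) and Thy1 (-2.06, 0.0139) fell, while Il5 (0.49, 0.0138) and Ptprc (0.90, 0.0484) rose. Gata3, the lineage's defining transcription factor, was between 845.8 and 1078 CPM in every library.

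The receptors of this family are built around a shared signalling chain, the common gamma chain, encoded by Il2rg. The alpha chain of the IL-2 receptor, CD25, encoded by Il2ra, does not signal and raises the affinity for IL-2 of the pair formed by the beta chain (Il2rb) and the gamma chain, which also serves IL-15. IL-7, IL-4, IL-9 and IL-21 each have a private chain that pairs with the gamma chain, and signals pass through JAK1 and JAK3 to STAT5, STAT6 or STAT3. In ILC2s, IL-2 and IL-7 support survival and expansion, and IL-9 can act on the cells that make it.

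Upstream sequences are shown for Il2ra, the member whose transcript rose at an edgeR adjusted p under 0.05, and Il2rg, the chain that the other receptors share. They are the 250 bases before the RefSeq start of each gene in GRCm38.p6, at chr2:11642542-11642791 on the plus strand for Il2ra and at chrX:101268256-101268505 on the minus strand for Il2rg. Capitals mark the bases that match a searched motif on either strand.
Il2ra: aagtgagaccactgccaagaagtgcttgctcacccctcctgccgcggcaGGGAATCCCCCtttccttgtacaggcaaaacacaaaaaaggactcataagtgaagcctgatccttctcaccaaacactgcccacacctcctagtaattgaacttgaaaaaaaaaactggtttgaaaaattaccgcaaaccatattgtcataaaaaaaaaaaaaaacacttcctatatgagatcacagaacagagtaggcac
Il2rg: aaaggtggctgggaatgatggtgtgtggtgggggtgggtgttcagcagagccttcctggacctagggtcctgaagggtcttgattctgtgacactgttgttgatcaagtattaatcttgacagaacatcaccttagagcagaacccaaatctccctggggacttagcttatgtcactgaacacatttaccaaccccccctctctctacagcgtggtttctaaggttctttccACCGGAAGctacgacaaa
In the Il2ra window the capitals are a pair of overlapping matches to the NF-κB consensus, which 7.25% of the 32851 mouse promoter windows of the same length hold. That consensus was widened after the promoters had been seen. In the Il2rg window the capitals are a match to the ETS motif ACCGGAAG, held by 1.72% of windows. The Il7r window holds TTCAGGGAA, a match to the STAT motif TTCNNNGAA (7.02% of windows), and the Il9r window holds 2 matches to the GATA motif AGATAA (9.99%). The same STAT motif with 4 bases in the gap (5.85% of windows) was in no member's window, and the Il4ra and Il21r windows matched no searched motif. Promoter windows were found for 6 of the 7 members, Il2rb being the exception. A match is a match of letters and no evidence of binding.

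Il2ra, on chromosome 2 (mm10, chr2:11642807-11693193, plus strand), was the member that passed the threshold in edgeR with TMM scaling of all libraries. Its level was 2064, 2054 and 1406 CPM in WT replicates 1, 2 and 3, and 3473, 3464 and 3417 CPM in SIRPα KO replicates 1, 2 and 3. Every SIRPα KO library lay above every WT library, the 3 SIRPα KO values were nearly equal, and WT replicate 3 was the lowest of all. WT libraries averaged 1841 ± 377.4 CPM against 3451 ± 30.17 CPM for the SIRPα KO libraries (SD, n = 3 each), and the transcript rose 1.87-fold (log2 fold change 0.91 ± 0.15 SE, 95% interval 0.57 to 1.24, edgeR adjusted p = 0.0154). These values rest on 21228 to 66022 reads per library.

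CD25 transcripts were among the most abundant in both groups. By CPM, Il2ra stood at place 29 of the genes in WT and at place 10 in SIRPα KO, and per kilobase of transcript at places 163 and 42 of 17586. Of the 16 other genes with at least as high an average level over all libraries, 2 rose past the threshold and 0 had as large a log2 fold change. Among all tested genes, 1142 had a log2 fold change at least as large.

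The call on Il2ra held without WT replicate 1, 2 or 3 (edgeR adjusted p = 0.0321, 0.0168 and 0.000337). With libraries of the same code summed, which leaves 2 against 2, the log2 fold change was 1.01 and the edgeR adjusted p was 0.130, and without SIRPα KO replicate 1, 2 or 3 the edgeR adjusted p was 0.10, 0.0991 and 0.0811 with log2 fold changes of 0.91, 0.91 and 0.92. Fold changes in these libraries followed transcript length. Over 10 classes of genes ordered by length, the median log2 fold change ran from -0.55 in the shortest to 0.47 in the longest. Il2ra, at 4412 bases, fell in a length class with a median of 0.21, and 92.9% of that class lay below it. Corrected for length and GC content of transcripts, its log2 fold change was 0.55 (edgeR adjusted p = 0.004), a 1.46-fold rise.

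Il2ra and the transcript Gm37881, of unsettled type, lie over each other on the same strand. Gm37881 had 186 to 331 reads in a library, against 21228 or more for Il2ra. Regulatory T cells, marked by Foxp3, are rich in CD25. The summed level of the T cell markers was 208.5 to 277 CPM in WT against 125.4 to 136.6 CPM in SIRPα KO, with 3 of 5 tested markers lower and 0 higher past the threshold. Cd4, Cd5, Cd3d and Foxp3 were under 1 CPM in every library, and Cd8a and Cd8b1 were not analysed here. In bulk RNA, fewer cells of a type and less RNA per cell cannot be told apart, and the part of other cells in the result was not tested.

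**Figure D1:**
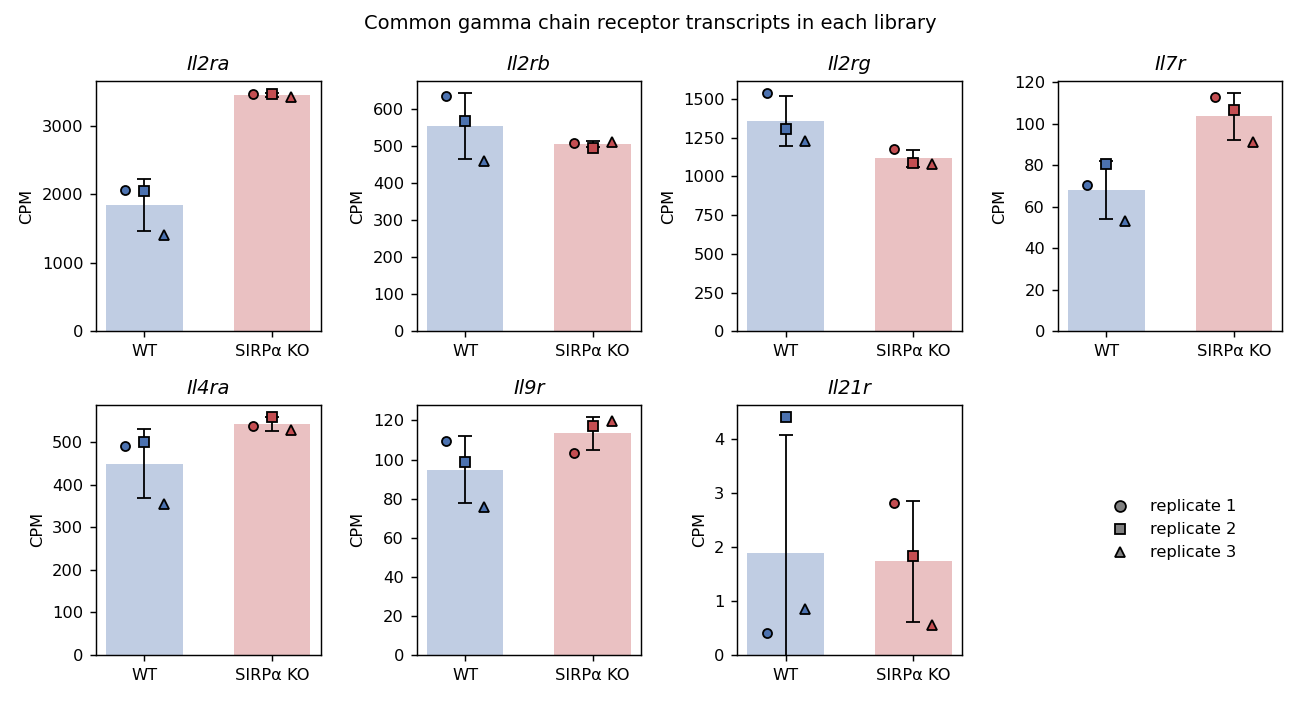
CPM of the 7 receptor chains in each library, with bars at the group mean, error bars of 1 SD (n = 3 libraries, cut off at 0 for Il21r) and a symbol for each replicate. Il2ra shows the widest gap, from 2064 CPM in the highest WT library to 3417 CPM in the lowest SIRPα KO library, and WT replicate 3 is the lowest WT library for 6 of the 7 genes.

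The other chains of the IL-2 receptor passed the threshold in neither direction. Il2rb (chr15:78479256-78495271, minus strand), the signalling beta chain shared by IL-2 and IL-15, was at 634.9, 568.5 and 459.2 CPM in the WT libraries and at 508.2, 495.6 and 511.5 CPM in the SIRPα KO libraries. The groups overlapped, with SIRPα KO inside the WT range. The log2 fold change was -0.13 ± 0.13 SE (95% interval -0.43 to 0.16, edgeR adjusted p = 0.50). After the correction for length and GC content it was -0.24 (edgeR adjusted p = 0.0806). Natural killer cells carry this chain, and the summed level of their 8 markers was 22.71 to 36.68 CPM in WT against 2.62 to 5.46 CPM in SIRPα KO, with 3 of 6 tested markers lower past the threshold, Eomes, Klrb1c and Gzma. Their part in the level of Il2rb was not tested.

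Il2rg (chrX:101264378-101268255, minus strand), the common gamma chain, was at 1540, 1306 and 1230 CPM in WT against 1178, 1089 and 1082 CPM in SIRPα KO. Here every SIRPα KO library lay below every WT library, by a narrow margin between WT replicate 3 and SIRPα KO replicate 1. The log2 fold change of -0.28 ± 0.11 SE (95% interval -0.53 to -0.04) did not pass the threshold over all genes (edgeR adjusted p = 0.117). With upper quartile scaling, which moved the median log2 fold change of all genes by -0.10, it was -0.38 with an edgeR adjusted p of 0.0497. At 1670 bases Il2rg is short, its length class had a median log2 fold change of -0.28, and after the correction for length and GC content it stood at -0.12 (edgeR adjusted p = 0.581). The annotation has another coding gene, Gm20489, overlapping Il2rg on the same strand, which was not analysed here.

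Il7r (chr15:9505788-9530176, minus strand), the private chain of the IL-7 receptor, had the next largest difference after Il2ra. It was at 70.6, 80.5 and 53.2 CPM in WT against 112.9, 106.8 and 91.0 CPM in SIRPα KO. The lowest SIRPα KO library lay above the highest WT library. The log2 fold change was 0.60 ± 0.18 SE (95% interval 0.19 to 1.02), and the edgeR adjusted p of 0.0644 missed the threshold. DESeq2 gave 0.63 with an adjusted p of 0.011, and the correction for length and GC content gave 0.29 with an edgeR adjusted p of 0.193. CD127, its protein, was part of the gate in both groups, and IL-7 was in the medium.

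Il4ra (chr7:125552120-125579474, plus strand), which binds IL-4 with the gamma chain and IL-4 or IL-13 with the IL-13 receptor chain Il13ra1, was at 490.8, 501.7 and 356.2 CPM in WT against 538.8, 560.6 and 529.5 CPM in SIRPα KO. The SIRPα KO libraries again lay above all WT libraries, and WT replicate 3 lay well below the rest. Its log2 fold change was 0.27 ± 0.14 SE (95% interval -0.05 to 0.60, edgeR adjusted p = 0.220). An antisense gene, Gm44876, overlaps Il4ra, and since use of strand in the counting is not given, their reads cannot be told apart.

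Il9r (chr11:32187541-32200279, minus strand), the private chain of the IL-9 receptor, was at 109.5, 98.8 and 75.8 CPM in WT against 103.5, 117.0 and 119.5 CPM in SIRPα KO. The groups overlapped at WT replicate 1. Its log2 fold change was 0.26 ± 0.16 SE (95% interval -0.11 to 0.63, edgeR adjusted p = 0.297), and 0.03 after the correction for length and GC content. Mast cells also carry this chain. The summed level of the mast cell and basophil markers was 113.2 to 144 CPM in WT against 166.2 to 230.8 CPM in SIRPα KO, with 0 of 5 tested markers past the threshold. Most of the sum was Kit, except in WT replicate 3, where Kit was 46.35 of 113.2 CPM. Kit was the 1 tested marker with a higher level (log2 fold change 0.92), and the other 4 had lower ones, Cpa3 (-0.86), Mcpt8 (-3.38), Cma1 (-1.42) and Tpsb2 (-0.50). Their part in the level of Il9r was not tested.

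Il21r (chr7:125603429-125633570, plus strand) was barely read. Its counts were 7, 62 and 13 in the WT libraries and 44, 35 and 9 in the SIRPα KO libraries, or 0.403, 4.41 and 0.861 CPM and 2.81, 1.84 and 0.558 CPM. The libraries within each group differed more than the groups, and the 95% interval of the log2 fold change ran from -2.27 to 2.04 (estimate -0.11 ± 0.93 SE, edgeR adjusted p = 0.945). WT replicates 1 and 2, of the same code number, differed 10.95-fold. Il21r begins 23954 bases after the end of its neighbour Il4ra, and the mean CPM of Il4ra was 273.7 times its own. B cells carry the IL-21 receptor. Of their markers, 7 summed to 213.9 to 477.4 CPM in WT against 23.01 to 86.53 CPM in SIRPα KO, with 4 of 6 tested lower and 0 higher past the threshold (Cd79a, Cd79b, Igkc and Ighm). Ighm was at 104.5 to 282.1 CPM in WT against 6.26 to 48.9 CPM in SIRPα KO (log2 fold change -2.65 ± 0.70 SE, edgeR adjusted p = 0.0487), and Igkc was at 73.4 to 177.2 CPM against 1.09 to 21.7 CPM (-3.29 ± 0.82 SE, edgeR adjusted p = 0.0420). Their part in the level of Il21r was not tested.

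In all, 1 of the 7 chains rose and 0 fell past the threshold, where 5.94% of the 13623 tested genes rose and 5.81% fell (11.7% called in either direction). Higher log2 fold changes were found for 4 chains and lower ones for 3, with a median of 0.26 beside -0.03 for all tested genes. SIRPα KO lay wholly above WT for 3 chains (Il2ra, Il7r and Il4ra), as for 21.6% of all tested genes, and wholly below for 1 (Il2rg), as for 21.2%, so that 4 of 7 did not overlap beside 42.8% of all genes. The coefficient of variation was larger in WT than in SIRPα KO for all 7 chains, 20.5% against 0.9% for Il2ra and 11.9% against 4.8% for Il2rg. WT replicate 3 was the lowest WT library for 6 of them, at 0.683 times the mean of the other WT libraries for Il2ra and 0.864 times for Il2rg. How often it was the lowest over all genes was not counted. The biological coefficient of variation of WT over all tested genes was 38%, and 27.9% without WT replicate 3. Without that library, 4 chains passed the threshold in edgeR, Il2ra (log2 fold change 0.75) and Il7r (0.46) upward and Il2rb (-0.24) and Il2rg (-0.34) downward, where 18.4% of all genes tested in that fit passed. Without WT replicate 2, Il2ra and Il7r passed, beside 16.3% of all genes. With any SIRPα KO library left out, 0 chains passed in edgeR, beside 16 or 17 genes in all (0.112% to 0.12%). In each of these fits, 2 of the 7 chains were at an unadjusted p under 0.05. So were 2991 of 14242, 2935 of 14146 and 3183 of 14141 genes (without SIRPα KO replicate 1, 2 and 3).

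**Figure D2:**
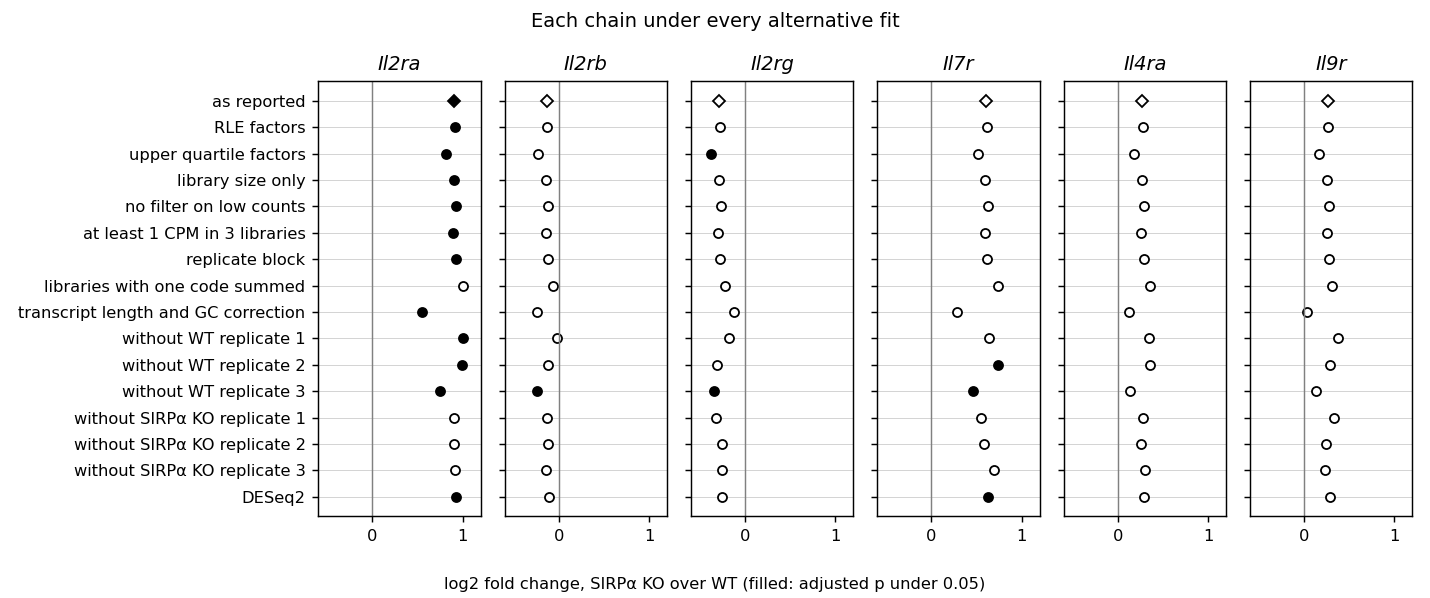
Log2 fold change of 6 chains (SIRPα KO over WT, Il21r left out) under each alternative fit, one row per fit, with filled symbols for an adjusted p under 0.05. Il2ra lies to the right of 0 in every fit, between 0.55 and 1.01, and Il2rb and Il2rg lie to the left of 0 in every fit.

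Per kilobase of the longest annotated transcript, which allows levels of different genes to be compared, the gamma chain led in WT cells, and in SIRPα KO cells the alpha chain of the IL-2 receptor led before the correction for length and GC content and not after it. Mean levels in WT were 813 CPM per kb for Il2rg, 417 for Il2ra, 132 for Il2rb and 85.5 for Il4ra, followed by Il9r (21.1), Il7r (19.2) and Il21r (0.757). In SIRPα KO the order was Il2ra at 782 CPM per kb, Il2rg at 669, Il2rb at 120 and Il4ra at 103, then Il7r (29.3), Il9r (25.3) and Il21r (0.695). Neighbours in these orders did not overlap between libraries, except Il9r and Il7r, whose ranges overlapped in both groups. Il2ra and Il2rg changed places also with merged exon lengths, at 322 against 569 CPM per kb in WT and 604 against 468 in SIRPα KO, while the order of Il7r and Il9r in SIRPα KO turned. The change of places was not there after the correction for length and GC content, chosen for levels and ratios after the data were seen, where the level of Il2ra was 0.539, 0.614 and 0.699 times that of Il2rg in the WT libraries and 0.923, 0.994 and 0.989 times in the SIRPα KO libraries.

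**Figure D3:**
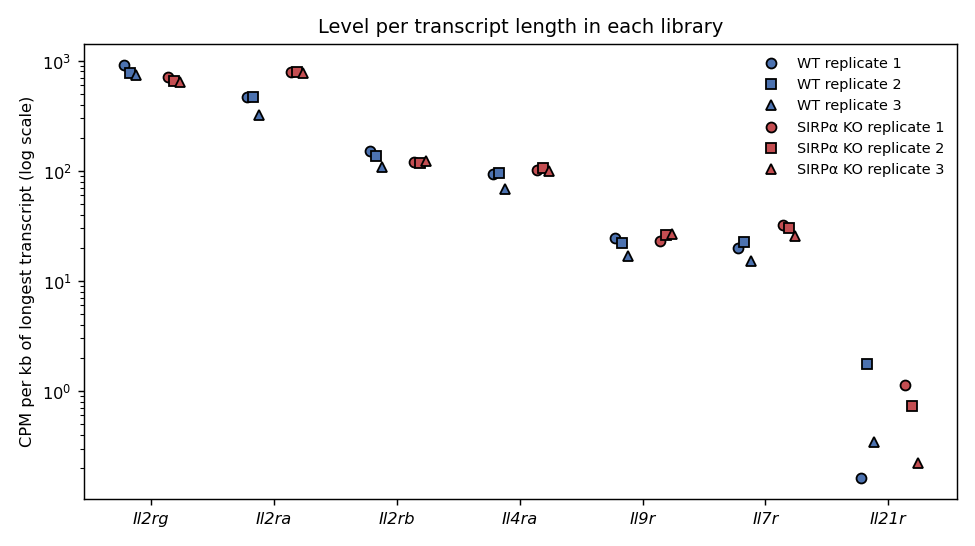
Level of each chain in each library, in CPM per kilobase of the longest transcript on a log axis, in the order of the WT means. Il2rg lies above Il2ra in the 3 WT libraries and below it in the 3 SIRPα KO libraries, where the values are shown before the correction for length and GC content (after it, Il2ra is 0.923 to 0.994 times Il2rg in SIRPα KO).

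Ratios of chains within a library need no scaling for library size and were compared for 7 pairs. The ratio of Il2ra to Il2rb reads was 3.25, 3.61 and 3.06 in WT and 6.83, 6.99 and 6.68 in SIRPα KO, a log2 difference of 1.05. For Il2ra to Il2rg it was 1.34, 1.57 and 1.14 in WT and 2.95, 3.18 and 3.16 in SIRPα KO, a log2 difference of 1.21. Per transcript length, that second ratio ran from 0.433 to 0.595 in WT and from 1.12 to 1.2 in SIRPα KO. The spread within either group was far smaller than these gaps, with SDs of the log2 ratio to Il2rg of 0.23 in WT and 0.06 in SIRPα KO.

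Relative to Il2rg, the SIRPα KO libraries also lay wholly above WT for Il7r (log2 difference 0.90), Il4ra (0.57) and Il9r (0.55). For these 5 ratios the two-sided exact permutation p was 0.1, the smallest that 3 against 3 libraries allow, and 0.14 after adjustment over the 7 ratios, so the design could not pass the threshold. Il2rb to Il2rg, the pair that binds IL-2 without the alpha chain, differed by 0.16 with overlapping groups (exact permutation p = 0.2, adjusted 0.233), and Il21r to Il2rg by 0.58 with wide spread (exact permutation p = 0.8). The lower Il2rg of SIRPα KO enters each ratio to it. Il2rg is also the shortest of the 7 transcripts, and after the correction for length and GC content the log2 difference was 0.79 for Il2ra to Il2rb, 0.66 for Il2ra to Il2rg and 0.39 for Il7r to Il2rg, still without overlap. It was then 0.24 for Il4ra and 0.13 for Il9r to Il2rg, with overlapping groups, and -0.14 for Il2rb to Il2rg.

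**Figure D4:**
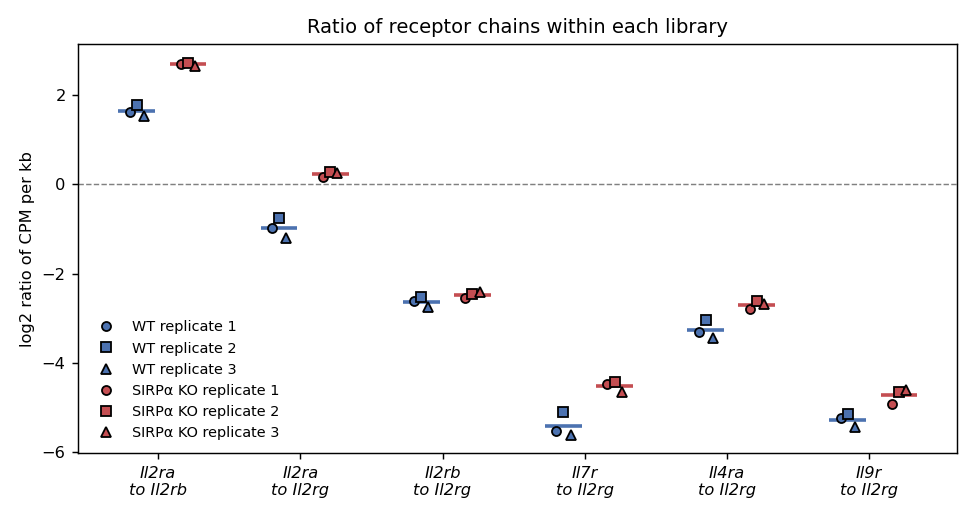
Log2 ratio of CPM per kb between chains in each library, with a symbol per replicate and a line at each group mean (Il21r left out). The dashed line marks equal levels, and the ratio of Il2ra to Il2rg crosses it, from 0.433 to 0.595 in WT to 1.12 to 1.2 in SIRPα KO on the linear scale, but not after the correction for length and GC content (0.923 to 0.994 in SIRPα KO).

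Of the 8 ligands, 6 were analysed and 3 passed the filter on low counts. Of these 3, 0 passed the threshold in edgeR and 0 in DESeq2, beside 11.7% and 18% of all genes. In edgeR 1 of them was at an unadjusted p under 0.05, beside 4355 of the 13623 tested genes. After the correction for length and GC content 1 passed the threshold, Il13 (log2 fold change 0.78, edgeR adjusted p = 0.00568). Il13, which uses Il4ra, was at 622.4, 527.0 and 743.3 CPM in WT against 759.1, 755.8 and 882.0 CPM in SIRPα KO (log2 fold change 0.34 ± 0.14 SE, edgeR adjusted p = 0.142). Il9 ranged widely in WT, at 202.1, 220.9 and 692.0 CPM, around SIRPα KO values of 567.1, 386.2 and 405.3 CPM (log2 fold change 0.29 ± 0.45 SE, edgeR adjusted p = 0.692). It was 0.97 after the correction (edgeR adjusted p = 0.0818), and 1.11 without WT replicate 3 (edgeR adjusted p = 0.00827). Il4 was at 8.82 to 16.0 CPM in WT against 10.2 to 11.3 CPM in SIRPα KO (-0.17, edgeR adjusted p = 0.693). Il2, Il7 and Il15 had at most 24 reads in any library and were not tested, and Il21 and Tslp were not analysed here.

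Chains that join the members in other receptors included 1 that fell. Crlf2, which forms the receptor of TSLP with the Il7r chain, was at 19.03, 19.9 and 30.2 CPM in WT against 10.99, 10.9 and 9.55 CPM in SIRPα KO. All SIRPα KO libraries lay below WT, opposite to the values of Il7r, and the log2 fold change was -1.14 ± 0.24 SE (edgeR adjusted p = 0.0267). After the correction for length and GC content it was -0.45 (edgeR adjusted p = 0.235). Il15ra, the alpha chain for IL-15, was at 10.9 to 25.8 CPM in WT against 14.3 to 18.3 CPM in SIRPα KO (-0.09, edgeR adjusted p = 0.862). Il13ra1 had at most 22 reads in a library and was not tested, and Il13ra2 was not analysed here.

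Of 8 JAK and STAT genes, among them Jak1 and Jak3, 0 passed the threshold in edgeR, beside 11.7% of all tested genes. At an unadjusted p under 0.05 there were 3 of them, beside 4355 of the 13623 tested genes. The median log2 fold change of the 8 genes was 0.41. DESeq2 called 2 of them higher, Jak1 and Stat5a, where it called 18% of all genes in either direction. The smallest adjusted p values were those of Stat5a (0.55 ± 0.17 SE, edgeR adjusted p = 0.0716) and Jak1 (0.60 ± 0.21 SE, edgeR adjusted p = 0.101), whose SIRPα KO libraries all lay above WT. After the correction for length and GC content they stood at 0.56 and 0.29, short of the threshold. Jak3 went the other way, at -0.32 ± 0.12 SE (edgeR adjusted p = 0.116), with all SIRPα KO libraries below WT. It was -0.24 after the correction (edgeR adjusted p = 0.173), and with upper quartile factors it passed downward (edgeR adjusted p = 0.0449). The 9 adaptor genes also had 0 past the threshold in edgeR, with 2 at an unadjusted p under 0.05, and DESeq2 called those 2, Gab2 and Pik3r1, higher. Gab2, a scaffold for the phosphatase SHP2 and PI3K, had a log2 fold change of 0.70 ± 0.20 SE (edgeR adjusted p = 0.0587), and Pik3r1, the regulatory subunit of PI3K, 0.48 ± 0.18 SE (edgeR adjusted p = 0.107). After the correction these were 0.38 and -0.03, so that the direction of Pik3r1 turned.

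Of 12 genes that IL-2 and STAT5 are known to induce, 0 rose and 3 fell past the threshold in edgeR. Of all tested genes, 5.94% rose and 5.81% fell. The median log2 fold change of the 12 genes was -0.22. DESeq2, which called 18% of all genes in either direction, called the same 3 lower and 2 higher. These 2 were Myc (edgeR 0.37, adjusted p = 0.0532) and Pim2 (edgeR 0.32, adjusted p = 0.0881). Socs1, which restrains JAK kinases, was at 400.7, 396.0 and 582.6 CPM in WT against 273.9, 277.7 and 303.8 CPM in SIRPα KO (-0.69 ± 0.16 SE, edgeR adjusted p = 0.0367). Socs3, a related inhibitor, was at 70.7, 80.0 and 91.4 CPM in WT against 51.9, 57.6 and 55.7 CPM in SIRPα KO (-0.55 ± 0.14 SE, edgeR adjusted p = 0.0461). Lta, the cytokine lymphotoxin alpha, was at 275.5, 362.7 and 423.0 CPM in WT against 146.5, 156.3 and 143.8 CPM in SIRPα KO (-1.25 ± 0.16 SE, edgeR adjusted p = 0.0101). Of the 12 genes, SIRPα KO lay wholly above WT for 2 and wholly below for 4, beside 21.6% and 21.2% of all tested genes. Socs1, Socs3 and Lta were among the 4. After the correction for length and GC content, Lta still passed (-0.80, edgeR adjusted p = 0.0125), and Socs1 (-0.53, edgeR adjusted p = 0.0846) and Socs3 (-0.33, edgeR adjusted p = 0.168) did not. With it, Bcl2 (-0.97, edgeR adjusted p = 0.00376) and Socs2 (-0.45, 0.0427) also passed downward and Myc (0.50, 0.0222) and Pim2 (0.55, 0.0148) upward, so 2 rose and 3 fell.

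Of 8 transcription factors known to regulate genes of these receptors, 3 rose and 0 fell past the threshold. Over all tested genes, 5.94% rose and 5.81% fell. The median log2 fold change of the list was 0.31, and the list was chosen with earlier results of these data known. Rel, the NF-κB subunit c-Rel, which acts on Il2ra, was at 8.34, 9.67 and 3.64 CPM in WT against 21.8, 22.7 and 19.3 CPM in SIRPα KO (1.56 ± 0.35 SE, edgeR adjusted p = 0.0312, and 1.05 with 0.0368 after the correction). Gabpa, an ETS factor that acts on Il7r, was at 36.3, 37.6 and 19.5 CPM in WT against 77.7, 55.4 and 66.3 CPM in SIRPα KO (1.09 ± 0.27 SE, edgeR adjusted p = 0.0393, and 0.67 with 0.0597 after it). Runx1 was at 22.8, 25.2 and 24.1 CPM in WT against 38.1, 36.7 and 33.1 CPM in SIRPα KO (0.58 ± 0.15 SE, edgeR adjusted p = 0.0482, and 0.12 with 0.714 after it). Of the 8 factors, these 3 were higher in each SIRPα KO library than in any WT library, beside 21.6% of all tested genes. Another 1 was lower in each, beside 21.2%.

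Among 20 chains of other class I cytokine receptors, 13 were analysed and 8 tested. Of these, 0 rose and 1 fell past the threshold, beside 5.94% and 5.81% of all tested genes. Their median log2 fold change was -0.26. The chain that fell was Il3ra, the alpha chain of the IL-3 receptor, at 16.0, 14.3 and 17.8 CPM in WT against 6.78, 8.71 and 6.45 CPM in SIRPα KO (-1.13 ± 0.22 SE, edgeR adjusted p = 0.0243, and -0.80 with 0.0529 after the correction). None of the 8 genes called in these lists passed in edgeR with a SIRPα KO library left out or with libraries of the same code summed. Without WT replicate 1, Rel (edgeR adjusted p = 0.0538), Gabpa (0.0567) and Runx1 (0.0833) no longer passed, and without WT replicate 2 Socs3 (0.0634) and Runx1 (0.0503) did not.

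**Figure D5:**
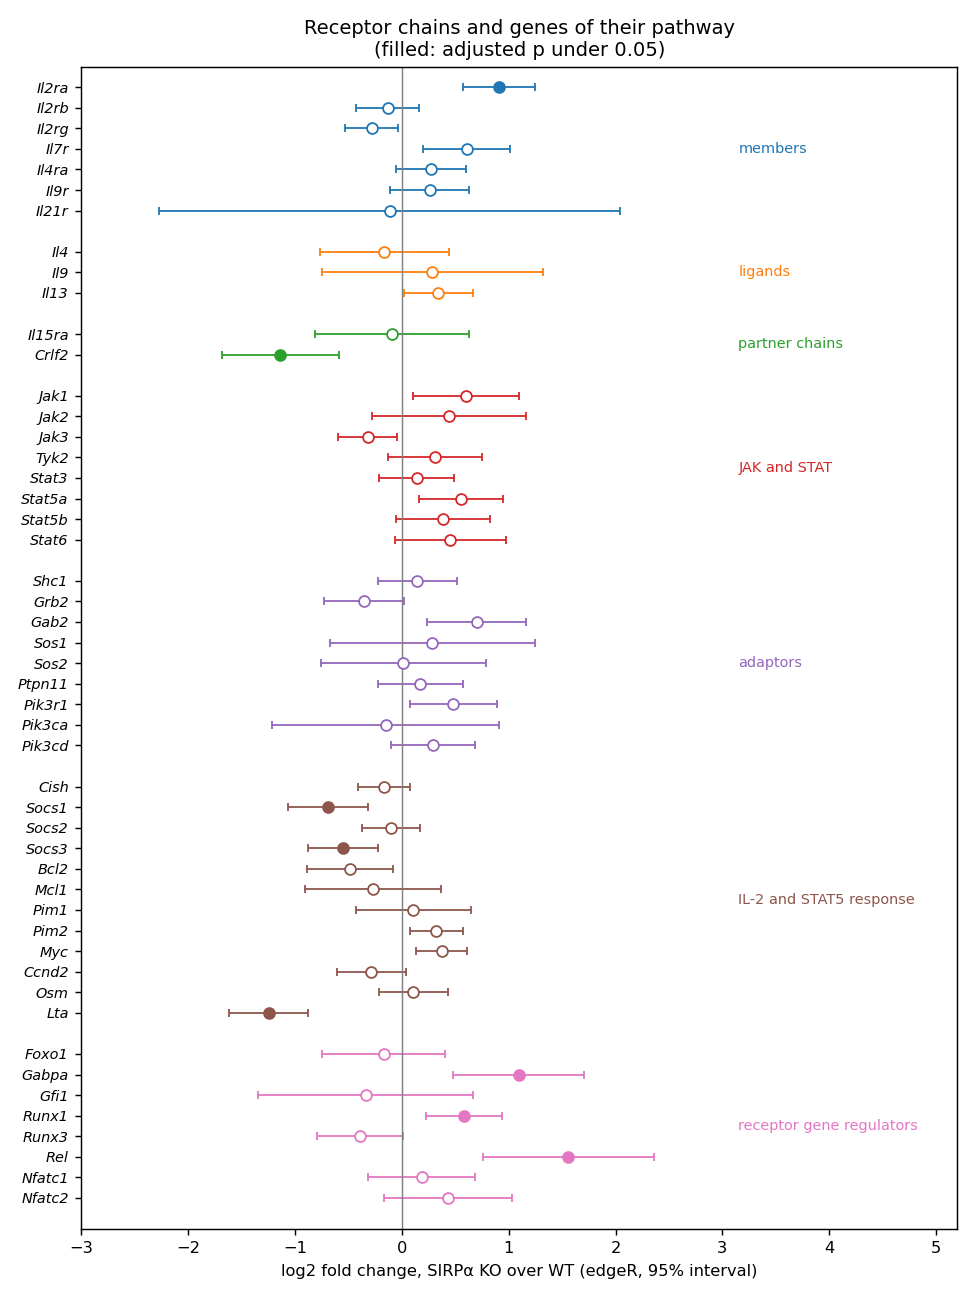
Log2 fold change of SIRPα KO over WT with its 95% interval for the tested members, ligands, partner chains, JAK and STAT genes, adaptors, IL-2 and STAT5 response genes and regulators. Filled points have an adjusted p under 0.05, of which Il2ra (0.91), Gabpa (1.09), Runx1 (0.58) and Rel (1.56) lie to the right of 0 and Crlf2 (-1.14), Socs1 (-0.69), Socs3 (-0.55) and Lta (-1.25) to the left.

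The genes whose log2 CPM ran most like that of each member over the 6 libraries, among 9066 candidates outside the lists, are given by Pearson's r as a description, since the libraries share genotypes and codes. Il2ra was matched by Wapl and Agps (both r = 0.999), Il2rb by Parp4 and Gnaz (both 0.992), and Il2rg by Smim10l1 (0.988) and Srek1ip1 (0.985). Il7r was followed by Pcgf3 (0.997) and Zmym4 (0.996), Il4ra by Ipo13 and Rps6kb1 (both 0.999), and Il9r by Pofut1 (0.994) and Smpd4 (0.993). The best for the rarely read Il21r were P2ry2 (0.964) and Pcnt (0.962).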

How the data were processed

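Bulk RNAseq of lung ILC2s was analysed in 3 WT and 3 SIRPα KO libraries. Per the labels' processing notes, the authors used STAR 2.7.8, Partek 10.0 and DESeq2 with mm10. The methods name GENCODE M21 and give other versions of STAR and Partek. The authors deposited estimated counts per gene, unscaled, with no gene under 10 reads in total, and how reads of overlapping or repeated genes were counted is not given in the sources used here. Of the gene columns, 152 were listed singly and the other 17679 hold the same unit.

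Values were rounded to integers, and genes that passed filterByExpr (minimum count 10, minimum total 15) were scaled by TMM and tested with edgeR 4.0.16 (R 4.3.3, limma 3.58.1) by its quasi-likelihood test with genotype as the only term, with Benjamini-Hochberg adjustment over 13623 genes and a threshold of 0.05. Alternatives were DESeq2 1.42.0, 3 other scalings, 2 other filters, a replicate block, libraries of the same code summed, leaving out each library and an offset for transcript length and GC content (splines with 5 degrees of freedom, 8912 genes). Chain ratios were compared by two-sided exact permutation (scipy 1.17.1). Levels per kilobase used GENCODE M21 lengths (17400 genes matched by symbol, 186 by synonym). No member had a near-identical transcript of another gene. Figures were drawn with matplotlib 3.10.9. Depth covers counting error only.

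The members and the gene lists were chosen with earlier results of these data known. Named are all members, every ligand and partner chain, every gene of the other pathway lists with an adjusted p under 0.05 or otherwise the 2 smallest, marker genes that describe a list, and for likeness the 2 genes of highest r whose average log2 CPM reached 3. Gm37881, Gm20489 and Gm44876 are named for their overlap with a member. Jak3 is named for its direction, opposite to that of Jak1 and Stat5a.

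The other marker lists gave these summed levels. Macrophage and dendritic cell markers were at 46.86 to 140.2 CPM in WT against 86.92 to 129.9 CPM in SIRPα KO, eosinophil and neutrophil markers at 1.92 to 9.80 and 4.22 to 23.1 CPM, and epithelium and stroma markers at 60.65 to 85.9 and 46.78 to 106.6 CPM. Of 8 tested markers in the first list, 1 rose past the threshold, Itgam (log2 fold change 2.55, edgeR adjusted p = 0.0454), and 0 fell. In the second, 0 of 2 passed. Of 3 tested in the third, Pecam1 rose (0.87, edgeR adjusted p = 0.0421) and Epcam fell (-1.18, edgeR adjusted p = 0.0354). 1 marker of the B cell list and 1 gene of the JAK and STAT list are not reported here.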

Additional observations from a re-analysis of the deposited data

How the results depend on the processing

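The count of all genes past the threshold (1600) was 3214 with DESeq2 and 10 with libraries of the same code summed (3359 at an unadjusted p under 0.05), and ran from 16 to 2606 with 1 library left out, 16 or 17 of them without a SIRPα KO library and 2606 without WT replicate 3. The count of members past the threshold was 1 (Il2ra), beside 11.7% of all genes. It was 2 with upper quartile factors (Il2ra, Il2rg), beside 12.6%. With DESeq2 it was 2 (Il2ra, with an adjusted p of 5.03e-06, and Il7r), beside 18%. With codes summed in edgeR it was 0, beside 0.0686%, and 2 members were at an unadjusted p under 0.05, beside 3359 of 14581 genes. It ran from 0 to 4 with 1 library left out. Il2ra had a log2 fold change of 1.01 with codes summed, where it missed the threshold, and of 0.75 to 1.0 with 1 library left out, where it missed it without any of the SIRPα KO libraries. Over all 16 fits it lay between 0.55 and 1.01. Il4ra and Il9r kept their direction and stayed short of the threshold in every fit, at 0.13 to 0.36 and 0.03 to 0.38. The sign of Il21r turned with the replicate block (0.16), codes summed (0.39), the length and GC correction (0.003), without WT replicate 2 and without SIRPα KO replicate 3 (0.31), and ran from -0.64 to 1.45 with 1 library left out. With 1 library left out, the difference of Il2ra to Il2rb ran from 0.995 to 1.12, of Il2ra to Il2rg from 1.09 to 1.32 and of Il21r to Il2rg from -0.27 to 1.58, and 5 to 6 of the 7 ratios were without overlap. With the length and GC correction, chosen for the ratios after seeing the data, 3 were, and Il2rb to Il2rg turned from 0.16 to -0.135.

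Libraries with the same replicate number did not deviate together at each number (r = -0.14, 0.18 and 0.03 across genes for numbers 1, 2 and 3), so the numbers were not taken as pairs. With the replicate block, 1118 genes passed, and Il2ra still did (0.93, edgeR adjusted p = 0.0256), while Crlf2 (0.0512), Socs3 (0.0775), Runx1 (0.10) and Il3ra (0.0509) did not. Il21r rests on 7 to 62 reads a library.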
